A study of Mus musculus with 32 samples.

Results

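The libraries described here were made from dark zone B cells of mice with activated PIK3CD, set against dark zone B cells of WT mice. They are 8 of the 32 libraries of the study, 4 from AID-cre aPIK3CD mice and 4 from AID-cre WT mice, chosen by their titles and column names and not by any measured value. All mice were C57BL/6 animals of 12 weeks. Spleens were taken 14 days after an intraperitoneal injection of NP-CGG in alum, and 500 cells were sorted per library straight into the buffer of the SMART-Seq v4 kit, a full-length cDNA method for little RNA. Both groups carry AID-cre, so the controls have the recombinase too, and the labels do not say how aPIK3CD is encoded. The title and column name of aPIK3CD replicate 1 say aPIK3CD while its genotype field reads AID-cre WT, so it was kept as aPIK3CD and results are also given without it or with it counted as WT. The column names share a replicate number across the populations of a genotype, but nothing in the labels says whether it stands for a mouse. The p-values therefore measure the spread between these libraries, part of which may be technical. In such bulk libraries, fewer cells with a transcript and less of it per cell cannot be told apart.

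As background, Pik3cd encodes p110 delta, the catalytic subunit of the class I PI3 kinase that lymphocytes use most. It makes the lipid messenger that recruits AKT to the membrane, and AKT in turn keeps FOXO1 out of the nucleus and raises mTORC1 activity, while lipid phosphatases such as SHIP (Inpp5d) remove the lipid. In germinal centres, B cells divide and mutate their antibody genes in the dark zone, which needs FOXO1 and CXCR4, and are selected for antigen in the light zone, where PI3K signalling is known to be stronger. The cre of AID-cre mice acts in activated B cells, among them those of germinal centres.

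The gene with the largest fold change among those called was Ighv8-8, a heavy chain variable segment on chromosome 12, and near-identical segments could share its reads. The stretch of Ighv8-8 in which its 3 closest relatives of equal length differ most from it is therefore shown, bases 139 to 288 of the 358 bases of each GENCODE M21 transcript (GRCm38, minus strand), with capitals for bases that differ from Ighv8-8.
Ighv8-8: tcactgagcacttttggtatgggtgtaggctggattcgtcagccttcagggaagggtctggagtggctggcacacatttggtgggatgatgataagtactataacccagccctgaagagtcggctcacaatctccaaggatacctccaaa
Ighv8-11: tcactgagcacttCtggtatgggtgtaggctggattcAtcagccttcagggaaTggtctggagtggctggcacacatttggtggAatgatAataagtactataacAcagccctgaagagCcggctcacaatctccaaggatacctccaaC
Ighv8-5: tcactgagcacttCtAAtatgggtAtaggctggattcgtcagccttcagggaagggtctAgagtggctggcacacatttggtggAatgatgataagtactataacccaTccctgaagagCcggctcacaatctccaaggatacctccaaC
Ighv8-12: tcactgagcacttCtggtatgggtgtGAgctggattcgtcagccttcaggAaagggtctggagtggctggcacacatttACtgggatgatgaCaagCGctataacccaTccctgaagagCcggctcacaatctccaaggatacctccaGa
Over the whole transcript Ighv8-11 and Ighv8-5 were identical to Ighv8-8 at 344 of 358 bases (96.1%) and Ighv8-12 at 338 (94.4%). Somatic mutation adds further differences in germinal centre cells, so the split of reads among these segments is uncertain.

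The aPIK3CD libraries held 1941224, 1154809, 1410899 and 1564240 counts, and the WT libraries 1348695, 1295646, 25797 and 1464876. WT replicate 3 stood apart. It detected 6329 genes, against 14606 to 15661 in the other dark zone libraries, and a single count in it is worth 38.5 counts per 1000000 (CPM). For genes near or below that level, its value says little about whether the groups overlap. Its mitochondrially encoded share was 6.12% of counts, against 0.610% to 1.03% in the aPIK3CD libraries and 0.818% to 0.905% in the other WT libraries. Summed over 15 mitochondrially encoded transcripts, counts were 11696, 11784, 12322 and 11832 in aPIK3CD and 11030, 11586, 1560 and 11825 in WT libraries. Outside WT replicate 3 these counts hardly followed the library totals, so the share tended to be lower in deeper libraries. Whether counts of abundant transcripts reach a bound was not tested. Values below are for the 8 libraries unless stated. Many are also given without WT replicate 3, but not all, and a value given alone may move without it.

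Zone markers followed the sort labels in 7 of the 8 libraries, and the sums of WT replicate 3 rest on few counts. Summed over 10 dark zone markers, the aPIK3CD libraries had 2362 to 2665 CPM and WT replicates 1, 2 and 4 had 2287 to 2641 CPM, all above the 8 light zone libraries. Summed over 12 light zone markers they had 1046 to 1572 CPM and 813 to 1296 CPM, all below the light zone libraries. WT replicate 3 had 1612 CPM of dark zone markers (47 counts), within the light zone range of 1392 to 1969 CPM. It had 720 CPM of light zone markers (21 counts), below the light zone libraries. Its dark zone sum was above its light zone sum, as in the other dark zone libraries and unlike the light zone libraries. Transcripts of other cells were present at low levels. The 6 NK and innate lymphoid markers summed to 4.98, 3.29, 33.0 and 109.9 CPM in aPIK3CD replicates 1 to 4 and to 3.58, 8.90, 0 and 0.653 CPM in WT replicates 1 to 4. The 81 counts of Gzma, a granule protease of killer cells, were all in aPIK3CD replicate 4. The 11 macrophage, monocyte and neutrophil markers summed to 49.8 to 121.4 CPM in aPIK3CD libraries and to 26.0 to 71.5 CPM in WT libraries. Only 3 of them, C1qb, C1qc and Cd68, had enough counts to be tested, so their fold changes do not stand for the list. By mean CPM without WT replicate 3, the untested Csf1r, Adgre1 and Itgam were lower in aPIK3CD libraries. Lyz2, C1qa, S100a8, S100a9 and Fcgr1 were higher. Of the 13 T cell markers, which summed to 400.7 to 548.5 CPM in aPIK3CD libraries and 439.3 to 548.7 CPM in WT libraries, most counts came from Lck and Cd2. Of the defining T cell genes, Cd3e had 8, 0, 4 and 0 counts in aPIK3CD and 0, 4, 1 and 0 counts in WT libraries, Cd3g 18, 0, 6 and 10 counts in aPIK3CD and 0, 26, 0 and 3 counts in WT libraries, and the receptor chain Trbc2 17, 2, 12 and 10 counts in aPIK3CD and 1, 8, 0 and 0 counts in WT libraries. In the other direction, Cd8a had 0 counts in all aPIK3CD libraries and 0, 9, 1 and 0 counts in WT libraries. Cd8b1 had 0 counts in all aPIK3CD libraries and 0, 9, 0 and 1 counts in WT libraries. These T cell counts were uneven among libraries. The 9 erythroid and platelet markers summed to 26.9, 52.7, 36.4 and 27.8 CPM in aPIK3CD libraries and to 60.8, 72.7, 68.6 and 78.3 CPM in WT libraries. All aPIK3CD libraries were below all WT libraries in this sum, but the sum of WT replicate 3 is 2 counts. Only 1 member, Hbb-bt, had enough counts to be tested, and it overlapped between the groups (log2 fold change -0.28). The 7 dendritic cell markers summed to 71.6 to 111.5 CPM in aPIK3CD libraries and to 0 to 116.2 CPM in WT libraries, the 0 in WT replicate 3. Most of these counts came from Flt3, while Siglech and Clec9a had 0 counts and Itgax had 1, in WT replicate 4. The part of such cells in the results was not tested.

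**Figure D1:**
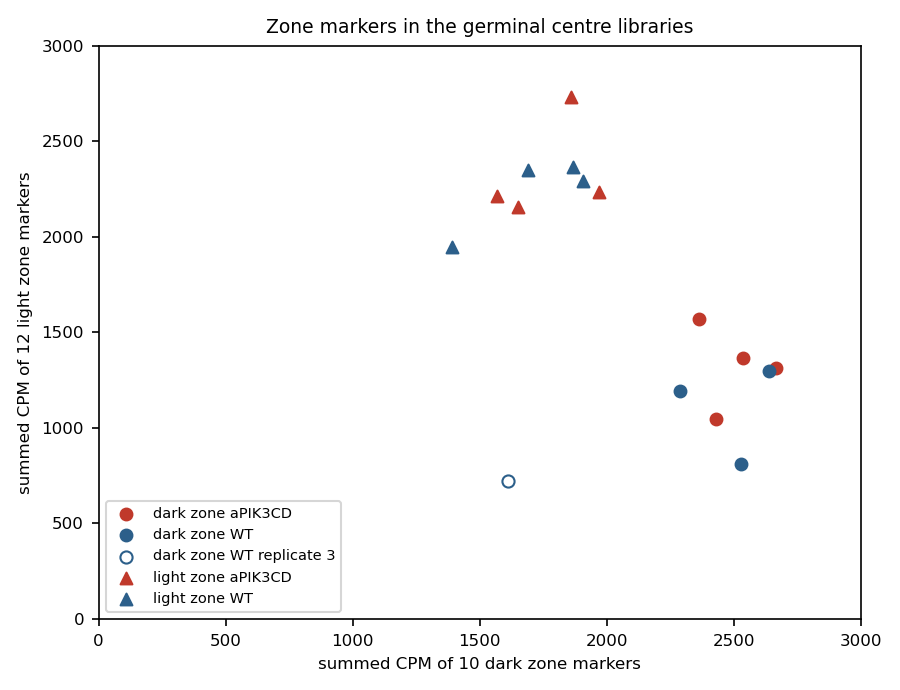
Summed CPM of 10 dark zone markers (horizontal axis) and 12 light zone markers (vertical axis) in the 16 germinal centre libraries, with circles for dark zone and triangles for light zone. The aPIK3CD and WT dark zone libraries sit together at 2287 CPM or more of dark zone markers, except WT replicate 3 (open circle). That library is at 1612 CPM, on 47 counts, within the light zone range of dark zone markers but below it in light zone markers.

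The question this comparison addresses is what activated PIK3CD does to the transcriptome of B cells in the dark zone. Very little passed the test. Of 9539 genes tested with edgeR, 2 had an adjusted p below 0.05 (0.021%), Ighv8-8 higher and A630023P12Rik lower in aPIK3CD cells. Without WT replicate 3, 9889 genes were tested and 0 passed, while 768 had an unadjusted p below 0.05 and DESeq2 called 23. In the 8 libraries 715 genes (7.5%) had an unadjusted p below 0.05, 464 higher (4.86%) and 251 lower (2.63%) in aPIK3CD cells. Of all tested genes, 51.5% had a log2 fold change above 0 and the median was 0.01.

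Ighv8-8 rose in aPIK3CD cells. It had 46, 12, 21 and 36 counts in the aPIK3CD libraries and 0, 0, 0 and 2 in the WT libraries. All 4 aPIK3CD libraries were above all 4 WT libraries, but WT replicate 3 held only 13 Ighv counts, so its 0 carries little. Per count sequenced the 115 counts against 2 give a ratio of 39.2, with an exact 95% counting interval of 10.6 to 327.3 that covers counting error only, and edgeR gave an adjusted p of 0.0147. The adjusted p was 0.113 without WT replicate 3 and 0.0799 without aPIK3CD replicate 1, and the call was also lost without aPIK3CD replicate 4, WT replicate 1 or WT replicate 2. The related segments did not follow it in every library: Ighv8-12 had 10, 6, 0 and 44 counts in aPIK3CD and 3, 2, 0 and 0 in WT libraries, and Ighv8-5 had 0, 8, 0 and 0 in aPIK3CD and 0, 0, 0 and 4 in WT libraries. Plasma cells, which hold most counts of the segment, averaged 547 ± 35.5 CPM in aPIK3CD and 467 ± 168 CPM in WT mice (SD, n = 4 each).

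A630023P12Rik, a transcript without a described role, fell in aPIK3CD cells. It had 22, 19, 9 and 26 counts in the aPIK3CD libraries and 120, 110, 1 and 48 in the WT libraries, or 11.5, 16.8, 6.58 and 16.8 CPM in aPIK3CD and 91.0, 86.5, 38.5 and 33.2 CPM in WT cells. The groups did not overlap, although the WT replicate 3 value is a single count. The log2 fold change was -2.41 (SE 0.39, adjusted p 0.0147). Without WT replicate 3 it was -2.44 with an adjusted p of 0.100, and the call was also lost without aPIK3CD replicate 1 (0.0799), WT replicate 1 (0.226) or WT replicate 2 (0.261). In light zone cells it averaged 5.02 ± 5.36 CPM in aPIK3CD and 10.7 ± 3.54 CPM in WT mice (SD, n = 4 each), below the WT dark zone libraries.

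Among named genes with a known role, none passed the adjusted threshold. Listed next are the 12 in each direction with the smallest unadjusted p in both fits, with and without WT replicate 3, whose 4 aPIK3CD libraries did not overlap WT replicates 1, 2 and 4. Such a lack of overlap was met by 379 tested genes (3.97%) in the higher and 410 (4.3%) in the lower direction, and a lack of overlap over all 8 libraries by 280 (2.94%) and 143 (1.5%), and the genes were picked by these same values, so they are a description. DESeq2 without WT replicate 3, an alternative chosen after seeing the data, called 17 of these 24. It used the same counts by which the 24 were picked, so these calls are no separate support. The 6 other calls of DESeq2 without WT replicate 3 included A630023P12Rik, Ighv8-8, Basp1, Igkv4-57 and Igkv3-10. Over all 8 libraries DESeq2 called 1 gene.

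Dusp2, a nuclear phosphatase that switches off MAP kinases, had the smallest p on the higher side. It had 352, 333, 302 and 348 CPM in aPIK3CD libraries and 230, 182, 193 and 206 CPM in WT libraries. All aPIK3CD libraries were above all WT libraries. The log2 fold change was 0.70 (SE 0.14, adjusted p 0.131; without WT replicate 3 0.168). Wdr4, the partner subunit of the methyltransferase that modifies guanosine in transfer RNA, had 58.1, 48.5, 62.9 and 57.3 CPM in aPIK3CD and 15.9, 21.2, 0 and 28.4 CPM in WT libraries. Its groups did not overlap, although the 0 of WT replicate 3 carries little at its depth. The log2 fold change of Wdr4 was 1.40 (SE 0.32, adjusted p 0.225, or 0.311 without WT replicate 3).

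Papss1, which makes the sulfate donor of the cell, had 41.3, 29.1, 13.9 and 32.2 CPM in aPIK3CD libraries and 2.27, 10.2, 0 and 6.92 CPM in WT libraries. Cmtr2, which methylates the messenger RNA cap, had 21.5, 10.6, 22.7 and 42.5 CPM in aPIK3CD libraries and 6.07, 1.57, 0 and 5.54 CPM in WT libraries. These were the largest folds on this side, with log2 fold changes of 2.18 (SE 0.52) for Papss1 and 2.46 (SE 0.57) for Cmtr2. Each had an adjusted p of 0.225, or 0.311 without WT replicate 3. Hif1a, the oxygen-regulated transcription factor, had 179, 205, 211 and 220 CPM in aPIK3CD and 91.7, 140, 116 and 140 CPM in WT libraries. Cul2, the scaffold of the ubiquitin ligase that turns HIF1A over, had 199, 163, 179 and 189 CPM in aPIK3CD and 77.3, 122, 116 and 124 CPM in WT libraries. Both were higher in every aPIK3CD library than in any WT library, with log2 fold changes of 0.72 (SE 0.17) for Hif1a and 0.76 (SE 0.18) for Cul2.

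The other 6 genes of this side are given by their fold changes. Stip1, a co-chaperone that links the main heat shock proteins, had a log2 fold change of 0.63, and Edem1, which hands misfolded glycoproteins of the endoplasmic reticulum to degradation, 0.56. Gpaa1, a subunit of the enzyme that attaches GPI anchors, had 1.11, Zdhhc2, a palmitoyltransferase, 1.10, and Rabgef1, an activator of endosomal Rab GTPases, 1.19. Srpk3, a kinase of splicing factors, had 0.61. In these 6 genes every aPIK3CD library was above every WT library, and the adjusted p values lay between 0.225 and 0.293.

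On the lower side, Tbc1d4, a Rab GTPase regulator that AKT is known to phosphorylate, had the smallest p. It had 3.66, 1.76, 2.19 and 7.09 CPM in aPIK3CD libraries and 26.5, 24.4, 38.5 and 15.2 CPM in WT libraries. The groups did not overlap, although the WT replicate 3 value is a single count. The log2 fold change was -2.55 (SE 0.54, adjusted p 0.186; without WT replicate 3 0.311). Satb1, a chromatin organizer, had 16.2, 26.5, 16.1 and 12.2 CPM in aPIK3CD and 49.3, 55.9, 77.1 and 39.5 CPM in WT libraries, again without overlap, and a log2 fold change of -1.49 (SE 0.35, adjusted p 0.225).

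Pax5, the transcription factor that fixes B cell identity, had 318, 385, 325 and 256 CPM in aPIK3CD libraries and 506, 483, 732 and 412 CPM in WT libraries. Foxp1, a forkhead factor of B cell development, had 286, 292, 279 and 247 CPM in aPIK3CD libraries and 398, 426, 694 and 346 CPM in WT libraries. For both, every aPIK3CD library was below every WT library, and WT replicate 3 was the highest. The log2 fold change of Pax5 was -0.59 (SE 0.15, adjusted p 0.293), or -0.54 without WT replicate 3 (adjusted p 0.311). That of Foxp1 was -0.56 (SE 0.15, adjusted p 0.299), or -0.50 without WT replicate 3 (adjusted p 0.311).

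Of the remaining lower genes, Aff3, a nuclear protein of the lymphoid AFF family, had a log2 fold change of -1.31 and Arl5c, an ARF-like GTPase, -0.58, both without overlap over all 8 libraries. Ahnak, a giant scaffold protein, had -2.13, Zmat3, an RNA-binding target of p53, -1.63 and Slx4ip, a partner of the SLX4 nuclease scaffold, -1.22. Pdzd2, a PDZ domain protein, had -0.88, Herc1, a giant ubiquitin ligase, -0.64 and Cd2, an adhesion receptor, -0.59. In these last 6 genes WT replicate 3 lay among or below the aPIK3CD libraries, at 0 counts for Ahnak, Zmat3 and Slx4ip.

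**Figure D2:**
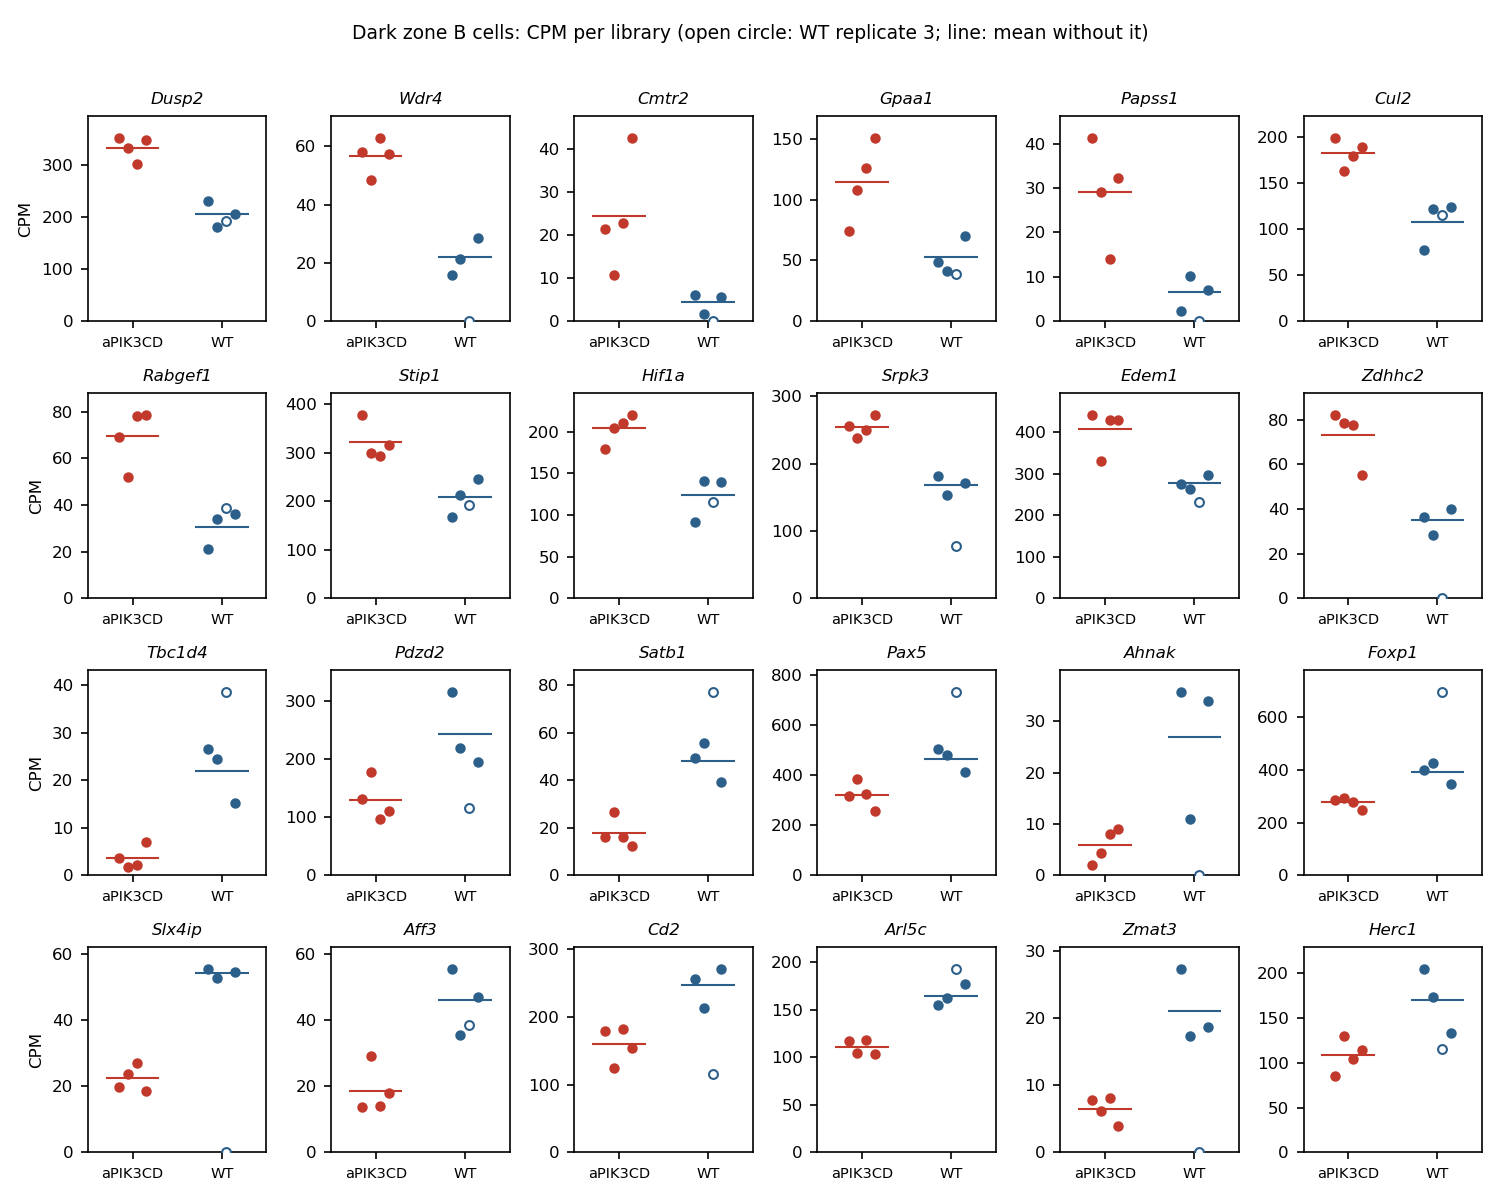
CPM in each dark zone library for the 12 genes higher (upper rows) and the 12 lower (lower rows) in aPIK3CD cells, each panel with aPIK3CD left of WT. Points are libraries, the open circle is WT replicate 3 and lines are means without it. The 4 aPIK3CD libraries do not overlap WT replicates 1, 2 and 4 in any panel, as the choice of genes requires.

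Promoters of these genes were searched on both strands for known short motifs, from 250 bases before to 50 bases after the start in the RefSeq promoter table (GRCm38.p6), which matched 9 of the 12 genes in each direction. The FOXO motif GTAAACA was in 0 of the 9 higher and 0 of the 9 lower genes, against 4.05% of all 27025 symbols. The E-box CACGTG was in 2 of the 9 higher genes, Dusp2 and Hif1a, and in 0 of the 9 lower genes, against 8.09% of all symbols. The AP-1 motif TGACTCA was in 1 higher gene, Wdr4, and 0 lower genes, against 5.95%. The E2F motif TTTCCCGC was in 0 higher and 0 lower genes, against 1.24%. The matches are shown with the motif in capitals, on the strand of the gene (minus for Wdr4), and are letters in a window, not evidence of binding.
Dusp2, chr2:127336010-127336095: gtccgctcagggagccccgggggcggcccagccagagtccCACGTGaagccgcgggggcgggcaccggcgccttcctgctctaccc
Hif1a, chr12:73907692-73907777: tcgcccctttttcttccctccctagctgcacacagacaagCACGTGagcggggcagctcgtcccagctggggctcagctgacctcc
Wdr4, chr17:31512665-31512737: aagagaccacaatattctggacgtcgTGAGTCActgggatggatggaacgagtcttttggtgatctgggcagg

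No gene of the PI3K pathway itself passed the test. Pik3cd had 193, 258, 163 and 257 CPM in aPIK3CD libraries and 223, 217, 154 and 184 CPM in WT libraries. The groups overlapped and the log2 fold change was 0.08 (SE 0.17, adjusted p 0.938), so the transcript level does not check the genotype labels. Of 13 tested class I subunits, adaptors and lipid phosphatases, 0 passed, and 1 was higher at an unadjusted p below 0.05 (background 4.86%). That gene was Pik3ap1, the adaptor BCAP that links the B cell receptor to PI3K. It had 78.0, 39.7, 36.6 and 104 CPM in aPIK3CD libraries and 34.9, 14.9, 77.1 and 35.3 CPM in WT libraries, with a log2 fold change of 1.13 (SE 0.38, adjusted p 0.450). The WT replicate 3 value, 2 counts deep, lay within the aPIK3CD range. Inpp5d had 285, 302, 369 and 358 CPM in aPIK3CD and 280, 282, 308 and 259 CPM in WT libraries. Its log2 fold change was 0.26 (SE 0.14), and those of 3 PI3K subunits were -0.19 for Pik3r1, 0.05 for Pik3ca and 0.26 for Pik3cg. The median over the 13 genes was 0.08.

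Downstream of PI3K, 26 tested AKT, TSC and mTOR components had a median log2 fold change of -0.02, with 0 called. Only 1 was lower at an unadjusted p below 0.05, beside a background of 2.63%. It was Eif4ebp1, the translation repressor that mTORC1 inactivates (-0.67). Akt1 had a log2 fold change of 0.18 (SE 0.16), Akt2 of -0.15 (SE 0.33), Mtor of -0.20 (SE 0.28), Tsc1 of -0.01 (SE 0.22) and Tsc2 of -0.11 (SE 0.28). Of 22 tested FOXO factors and FOXO targets, 0 were called and 2 were lower at an unadjusted p below 0.05, the cell cycle brakes Rbl2 (-0.71) and Ccng2 (-0.45), beside a background of 2.63%. Foxo1 had 353, 452, 402 and 363 CPM in aPIK3CD libraries and 398, 446, 501 and 328 CPM in WT libraries. The groups overlapped, with a log2 fold change of -0.02 (SE 0.14), and FOXO1 location in the cell was not measured. Among homing genes that FOXO1 activates, the log2 fold change was -0.38 (SE 0.40) for Klf2, -0.40 (SE 0.38) for S1pr1 and 0.01 (SE 0.44) for Ccr7. Il7r was too low to be tested, with at most 7.08 CPM in any library, and Rag1 had 0 counts in the 8 libraries.

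**Figure D3:**
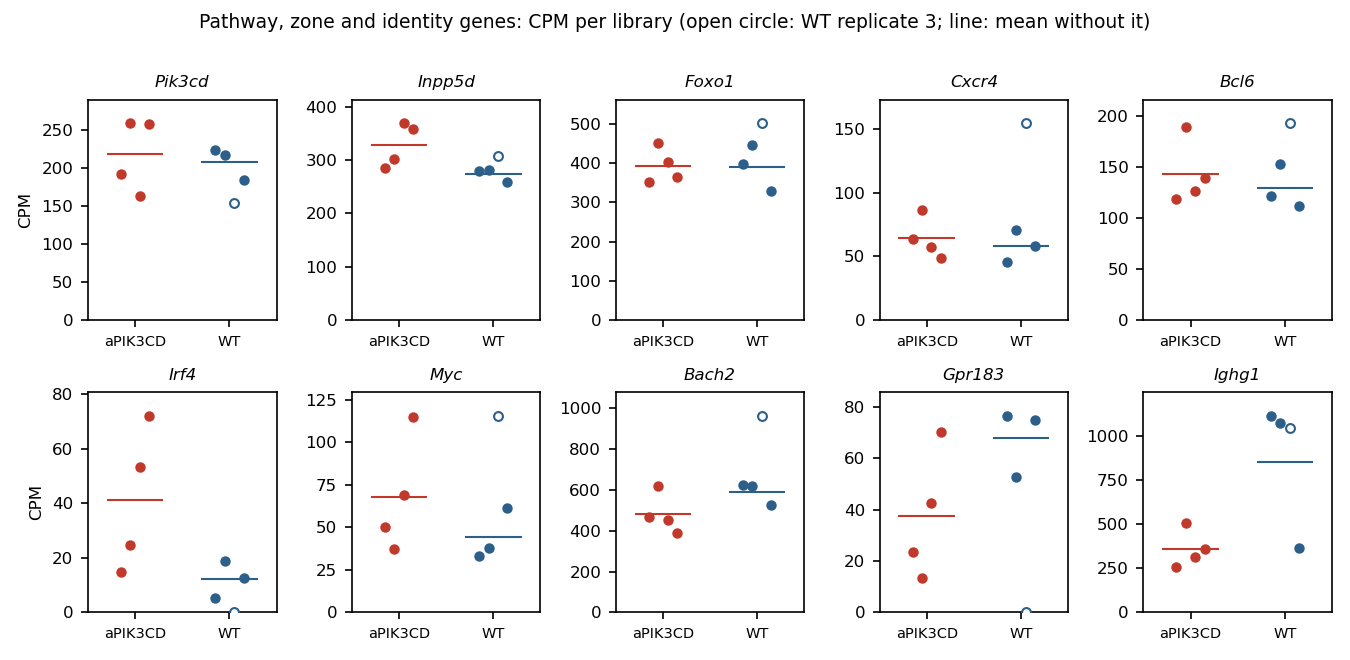
CPM in each dark zone library for 10 genes of the PI3K pathway, the zones, B cell identity and class switching, with aPIK3CD left of WT, points for libraries, an open circle for WT replicate 3 and lines for means without it. Pik3cd, Foxo1, Cxcr4 and Bcl6 overlap between the groups, Irf4 reaches 72.2 CPM in an aPIK3CD library against at most 18.9 CPM in WT, and WT replicate 4 lies with the aPIK3CD libraries for Ighg1.

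The dark zone programme gave no calls. Of its 29 tested genes, 0 were called with edgeR, 0 had an unadjusted p below 0.05 in either direction, and the median log2 fold change was 0.02. Cxcr4, the receptor that holds cells in the dark zone, had 63.8, 86.5, 57.1 and 49.0 CPM in aPIK3CD and 45.5, 70.8, 154 and 58.2 CPM in WT libraries, with a log2 fold change of 0.06 (SE 0.28). The groups overlapped. The SE leaves room for differences in either direction.

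The light zone programme had a median log2 fold change of 0.26 over 28 tested genes, against 0.01 over all genes, with 0 called. At an unadjusted p below 0.05, 5 were higher and 0 lower, beside backgrounds of 4.86% and 2.63%. The 5 were Irf4, Icam1, Nfkb2, Junb and Lmo2. Irf4, a factor that B cell activation turns on, had 14.7, 24.7, 53.4 and 72.2 CPM in aPIK3CD libraries and 5.31, 18.9, 0 and 12.5 CPM in WT libraries, with a log2 fold change of 1.77 (SE 0.51, adjusted p 0.354). Its aPIK3CD values spread widely and aPIK3CD replicate 1 lay within the WT range. Among the dark zone libraries, Irf4 and the summed light zone markers were both highest in aPIK3CD replicate 4. The sum includes Irf4 itself, so the 2 are not separate. Icam1, an adhesion ligand for helper T cells, had 119, 88.2, 86.3 and 180 CPM in aPIK3CD and 75.1, 30.7, 77.1 and 74.8 CPM in WT libraries, without overlap (0.97, SE 0.29, adjusted p 0.398). Myc, the marker of selected cells, had 50.2, 37.1, 68.8 and 115 CPM in aPIK3CD and 33.4, 37.8, 116 and 61.6 CPM in WT libraries, which overlapped (0.55, SE 0.35). The light zone surface markers had 0.25 (SE 0.18) for Cd83 and 0.18 (SE 0.16) for Cd86, with overlapping groups.

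Among 36 germinal centre identity genes and transcription factors, 0 were called, and at an unadjusted p below 0.05 6 were higher and 3 lower, beside backgrounds of 4.86% and 2.63%. The 3 lower were Pax5, Foxp1 and Bach2, the repressor that holds back plasma cell fate, with 467, 618, 455 and 387 CPM in aPIK3CD and 625, 618, 964 and 528 CPM in WT libraries (-0.36, SE 0.16, adjusted p 0.647). The 6 higher were Myb, Gcnt1, Mybl2, Basp1, Lmo2 and Ikzf3. Myb, a factor of proliferating progenitors, had 45.5, 53.8, 36.6 and 37.4 CPM in aPIK3CD and 17.4, 22.0, 38.5 and 17.3 CPM in WT libraries (1.16, SE 0.34, adjusted p 0.361). Only WT replicate 3, with its 1 count of Myb, lay within the aPIK3CD range. Basp1 had 396, 513, 394 and 364 CPM in aPIK3CD and 194, 223, 617 and 325 CPM in WT libraries (0.67, SE 0.19), and Gcnt1, a glycosyltransferase of germinal centre B cells, 69.6, 77.6, 67.3 and 74.1 CPM in aPIK3CD and 45.5, 41.7, 0 and 38.8 CPM in WT libraries (0.82, SE 0.26). Bcl6, the master repressor of the germinal centre, had 0.12 (SE 0.19), Mef2b, its activator, 0.20 (SE 0.13), Ebf1 0.04 (SE 0.15), Ezh2, the histone methyltransferase of dividing germinal centre cells, 0.02 (SE 0.14), and S1pr2, the receptor that confines cells to the centre, 0.22 (SE 0.17).

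Positioning and receptor genes gave no calls. Of 21 positioning receptors, 0 were called and 1 was higher at an unadjusted p below 0.05, beside a background of 4.86%. It was the integrin chain Itgb2 (0.53, SE 0.16). Gpr183, which draws B cells out of the follicle centre, had 23.5, 13.2, 42.4 and 70.2 CPM in aPIK3CD and 76.6, 52.7, 0 and 74.8 CPM in WT libraries (-0.80, SE 0.39, adjusted p 0.669). Among 41 B cell receptor and signalling genes the median was 0.00, 0 were called, and 3 were higher and 1 lower at an unadjusted p below 0.05, beside backgrounds of 4.86% and 2.63%. Beside Pik3ap1, the higher ones were Vav1 and Bcl10. Vav1, an exchange factor that acts below the receptor, had 232, 243, 244 and 365 CPM in aPIK3CD and 215, 187, 77.1 and 152 CPM in WT libraries, without overlap (0.58, SE 0.18, adjusted p 0.398). Bcl10, an adaptor that links the receptor to NF-kappa B, had a log2 fold change of 0.42 (SE 0.20). The lower one, Cbl, a ubiquitin ligase that ends receptor signalling, had 163, 208, 167 and 136 CPM in aPIK3CD and 239, 260, 193 and 208 CPM in WT libraries (-0.48, SE 0.16, adjusted p 0.449). The complement receptor Cr2 had a log2 fold change of -0.12 (SE 0.14). Lck, a kinase of T cells that these B cell libraries also hold, had 344, 282, 301 and 371 CPM in aPIK3CD and 235, 171, 308 and 246 CPM in WT libraries (0.56, SE 0.16, adjusted p 0.354). The T cell receptor chain Trac had 21, 0, 10 and 22 counts in aPIK3CD and 5, 26, 2 and 1 counts in WT libraries. The part of T cells in the Lck value was not tested.

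Replication genes of the G1/S phase had more members past the unadjusted threshold than the background. Of 47 tested, 0 were called, 10 were higher and 1 lower at an unadjusted p below 0.05, beside backgrounds of 4.86% and 2.63%, and the median log2 fold change was 0.11. Mcm2, a subunit of the replicative helicase, had 351, 306, 254 and 385 CPM in aPIK3CD and 237, 219, 193 and 224 CPM in WT libraries, without overlap (0.52, SE 0.15, adjusted p 0.354). Cdc6, which loads that helicase, had 225, 119, 198 and 222 CPM in aPIK3CD and 113, 119, 77.1 and 125 CPM in WT libraries (0.71, SE 0.20, adjusted p 0.354). In Cdc6 aPIK3CD replicate 2 lay with the WT libraries. E2f4, a factor of the cell cycle, had 158, 105, 117 and 215 CPM in aPIK3CD and 53.1, 92.8, 38.5 and 101 CPM in WT libraries, without overlap (0.88, SE 0.25, adjusted p 0.354). The D-type cyclins had 0.25 (SE 0.16) for Ccnd3, the cyclin of the dark zone, and 0.06 (SE 0.38) for Ccnd2.

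Mitosis genes were close to the background. Of 51 tested G2/M and mitosis genes, 0 were called, 1 was higher (Ect2, 0.62) and 1 lower (Cenpf, -0.28) at an unadjusted p below 0.05, beside backgrounds of 4.86% and 2.63%, and the median was -0.03. Mki67, the proliferation antigen, had 1205, 1345, 1212 and 1294 CPM in aPIK3CD and 1399, 1407, 1580 and 1296 CPM in WT libraries (-0.14, SE 0.14). Of 37 hypermutation and DNA repair genes, 0 were called and 5 were higher at an unadjusted p below 0.05, beside a background of 4.86%, among them the mismatch repair genes Exo1 and Pms2 with Polq and Gtf2h1. Ung, which removes uracil from DNA, had a log2 fold change of -0.24 (SE 0.43), and Polh, the error-prone polymerase of hypermutation, 0.48 (SE 0.37).

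Growth genes gave no calls, and the medians of their 3 lists lay above the 0.01 of all genes. Of 43 MYC targets and ribosome biogenesis genes, 0 were called, 5 were higher and 0 lower at an unadjusted p below 0.05, beside backgrounds of 4.86% and 2.63%, with a median of 0.13. Beside Wdr4 these were Bop1, Ppan, Rrp9 and Gnl3, all factors of ribosome assembly. Bop1 had 132, 78.5, 126 and 159 CPM in aPIK3CD and 50.8, 68.4, 0 and 91.4 CPM in WT libraries (0.86, SE 0.26), and Ppan 153, 161, 151 and 238 CPM in aPIK3CD and 133, 93.6, 38.5 and 111 CPM in WT libraries (0.67, SE 0.20). Ppan did not overlap between the groups and Bop1 did. Glycolysis genes had a median of 0.16 over 20 tested, with 3 higher and 0 lower at an unadjusted p below 0.05 against the same backgrounds, Hif1a, the lactate carrier Slc16a1 (1.01) and the phosphofructokinase Pfkp (0.54). Cholesterol genes had a median of 0.22 over 25 tested, of which 20 lay above 0, with 1 higher and 0 lower against these backgrounds, Insig1, the sterol-sensing brake of the pathway (1.01, SE 0.36).

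Stress and immediate early genes had the highest median of the 23 gene lists other than cell type markers, 0.27 over 19 tested genes. Of these 0 were called, and 7 were higher and 0 lower at an unadjusted p below 0.05, beside backgrounds of 4.86% and 2.63%. The 7 were Dusp2, Hspa1b, Hsph1, Dnajb1, Ier2, Junb and Fos. Hspa1b, an inducible heat shock protein, had 27.2, 15, 92.2 and 63.8 CPM in aPIK3CD and 11.4, 14.2, 0 and 13.2 CPM in WT libraries (1.96, SE 0.48, adjusted p 0.232). It spread over a wide range among the aPIK3CD libraries, and aPIK3CD replicate 2 lay just above WT replicate 2. Hsph1, a chaperone partner, had 210, 197, 206 and 184 CPM in aPIK3CD and 114, 131, 77.1 and 153 CPM in WT libraries, without overlap (0.60, SE 0.16, adjusted p 0.321).

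The interferon list held members in both directions. Of 23 tested genes 0 were called, 5 were higher and 4 lower at an unadjusted p below 0.05, beside backgrounds of 4.86% and 2.63%, and the median was 0.11. The 5 higher included the transcription factors Irf7, Irf1 and Irf9 with the GTPase Irgm1, and the 4 lower were the antiviral genes Ddx58, Ifit2, Ifi203 and Ifi27. Irf7 had 119, 51.2, 110 and 120 CPM in aPIK3CD and 31.8, 53.5, 38.5 and 62.3 CPM in WT libraries (1.03, SE 0.29). Ddx58, the RNA sensor RIG-I, had 7.33, 8.82, 6.58 and 13.5 CPM in aPIK3CD and 22.7, 16.5, 38.5 and 40.2 CPM in WT libraries (-1.56, SE 0.46). Ddx58 did not overlap between the groups, although its WT replicate 3 value is a single count. For Irf7 aPIK3CD replicate 2 lay within the WT range. Irf1 (0.68, SE 0.22) was highest among aPIK3CD libraries in replicate 4, the library with the most NK marker counts.

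The plasma cell programme had 4 higher and 1 lower of 21 tested genes at an unadjusted p below 0.05, beside backgrounds of 4.86% and 2.63%, 0 called, and a median of 0.20. Beside Irf4, the higher ones were Edem1, Edem2 and Fam46c, and the lower one was the surface receptor Slamf7 (-0.30, SE 0.13). Edem1 had 441, 329, 428 and 430 CPM in aPIK3CD and 275, 263, 231 and 297 CPM in WT libraries, and Edem2 126, 75.0, 75.4 and 110 CPM in aPIK3CD and 56.1, 62.1, 38.5 and 61.6 CPM in WT libraries (0.71, SE 0.24). Neither overlapped between the groups. Prdm1, the factor that commits cells to secretion, was too low to be tested, with 1, 16, 1 and 24 counts in aPIK3CD and 1, 4, 0 and 2 in WT libraries.

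Mitochondrial and ribosomal genes had medians below 0, which moved toward 0 without WT replicate 3. Of 72 nuclear-encoded oxidative phosphorylation genes, 64 had a log2 fold change below 0, and the median was -0.21, or -0.16 without WT replicate 3. With 0 called, 3 were lower and 0 higher at an unadjusted p below 0.05, beside backgrounds of 2.63% and 4.86%. Ndufa8, a complex I subunit, had 172, 178, 168 and 124 CPM in aPIK3CD and 221, 229, 231 and 213 CPM in WT libraries, without overlap (-0.47, SE 0.16, adjusted p 0.449). The 76 cytosolic ribosomal protein genes had a median of -0.22, which was -0.11 without WT replicate 3, with 0 called and 0 past the unadjusted threshold. Of 9 tested mitochondrially encoded transcripts, 5 were lower at an unadjusted p below 0.05, beside a background of 2.63%. The median over the 9, -0.92, was -0.03 without WT replicate 3.

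**Figure D4:**
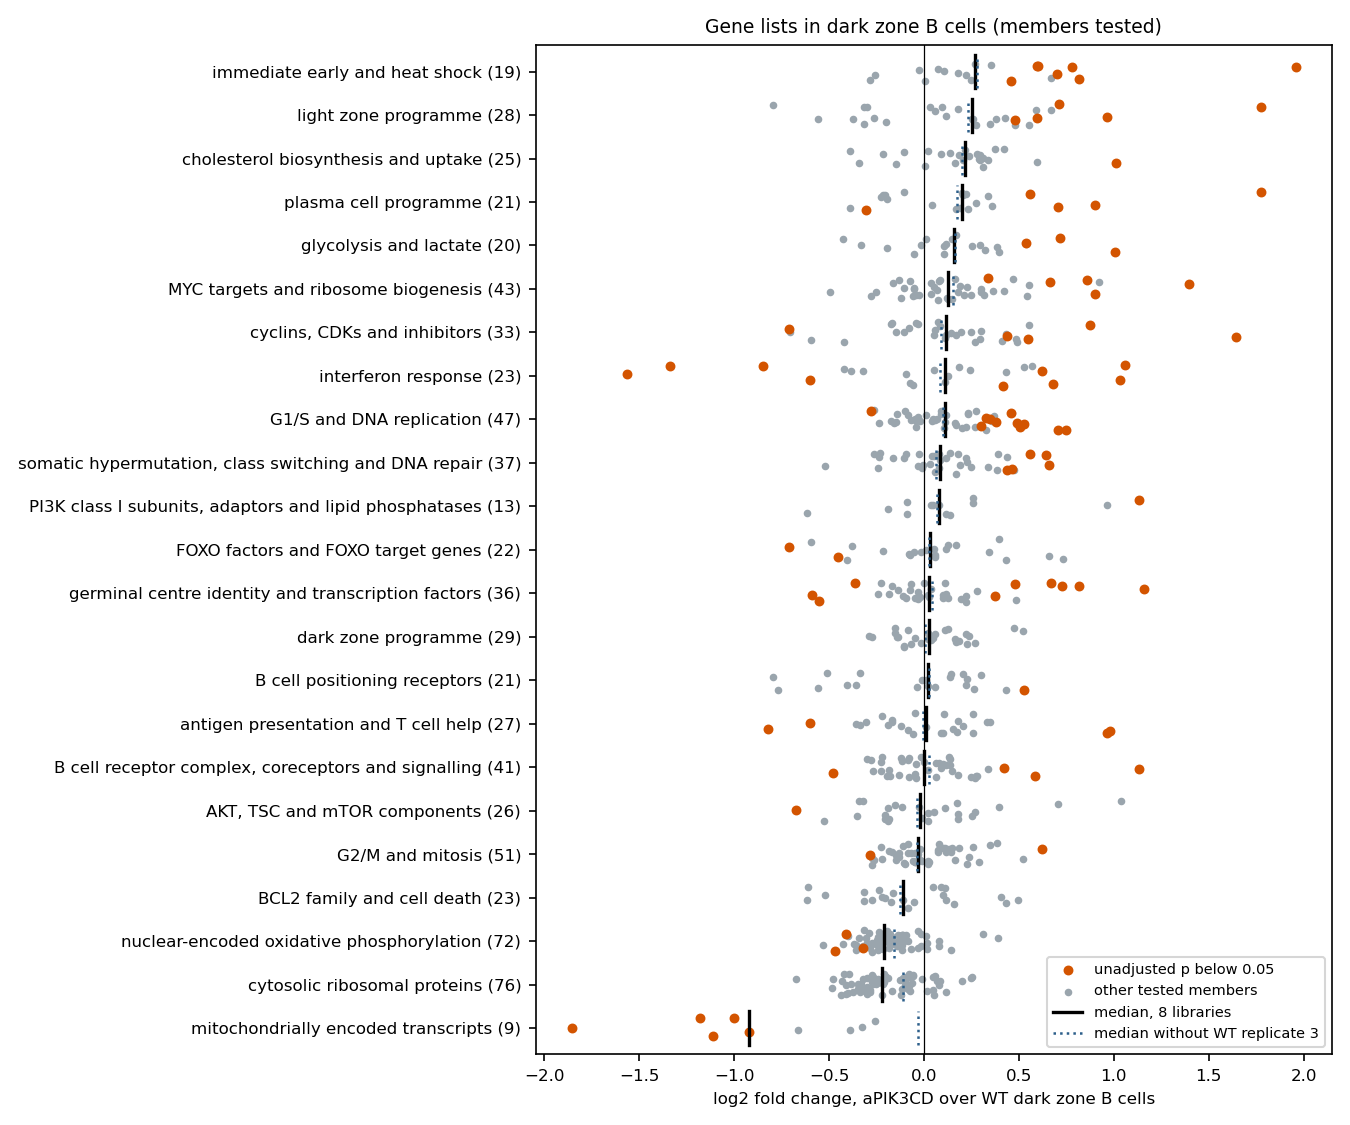
Log2 fold change, aPIK3CD over WT, of each tested member of 23 gene lists, sorted by median (number tested in brackets). Orange points have an unadjusted p below 0.05, black bars are medians over 8 libraries and dotted bars medians without WT replicate 3, which moves the mitochondrially encoded median to -0.03.

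Antibody class genes gave no calls, and their shares varied among libraries of a group. Ighg1, the constant gene of the IgG1 class that dominates responses to protein in alum, had 491, 571, 428 and 557 counts in aPIK3CD libraries and 1467, 1360, 27 and 528 counts in WT libraries. As a share of heavy chain constant counts that was 9.34%, 12.8%, 8.14% and 9.08% in aPIK3CD libraries and 27.5%, 27.9%, 9.25% and 10.4% in WT libraries. WT replicates 1 and 2 were high, and WT replicate 4 lay with the aPIK3CD libraries. The log2 fold change was -1.28 (SE 0.26, adjusted p 0.131; without WT replicate 3 -1.25, adjusted p 0.311), and without WT replicate 4 it was -1.60 with an adjusted p of 9.71e-05. Without WT replicate 1 it was -1.09 (adjusted p 0.627) and without WT replicate 2 -1.12 (adjusted p 0.379). Leaving out 1 aPIK3CD library gave adjusted p values from 0.0257 (replicate 2) to 0.326 (replicate 4). Ighg2b made 13.2%, 12.7%, 22.6% and 19.3% of these counts in aPIK3CD and 9.93%, 9.84%, 3.42% and 18.1% in WT libraries. Ighg3 made 11.2%, 13.1%, 8.60% and 10.5% in aPIK3CD and 8.21%, 7.89%, 2.74% and 7.47% in WT libraries. Each aPIK3CD library was above each WT library in this share, and the log2 fold change of Ighg3 was 0.39 (SE 0.16, adjusted p 0.614), with CPM values that overlapped. Ighm made 56.0%, 50.2%, 49.3% and 45.0% in aPIK3CD and 45.0%, 44.1%, 67.1% and 51.0% in WT libraries, and its log2 fold change of -0.67 (SE 0.33) was 0.02 without WT replicate 3. Ighd had a log2 fold change of 0.09 (SE 0.15).

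Of 6 shares compared by two-sided exact permutation tests over the libraries, none passed after adjustment over the 6. The Ighg share was 39.7% ± 4.50 in aPIK3CD and 37.4% ± 13.7 in WT libraries (SD, n = 4 each; exact p 0.914, adjusted 0.971), and the Ighm share 50.1% ± 4.53 in aPIK3CD and 51.8% ± 10.7 in WT libraries (adjusted exact p 0.971). Both differences turned without WT replicate 3, when the WT mean was 44.0% for Ighg, a difference of -4.30 points (adjusted exact p 0.343), and 46.7% for Ighm, a difference of 3.42 points (adjusted exact p 0.411). The lambda share of light chain counts, high in responses of this strain to NP, was 58.9%, 56.1%, 57.1% and 55.3% in aPIK3CD and 61.5%, 57.3%, 24.4% and 59.3% in WT libraries. WT replicate 3 was low, and the exact p was 0.971, or 0.114 without it (adjusted 0.343). Ighv1-72, the heavy chain segment typical of NP binding, had 3, 2, 2 and 4 counts in aPIK3CD and 6, 5, 0 and 7 in WT libraries. Its share of Ighv counts was lower in each aPIK3CD library than in WT replicates 1, 2 and 4, with an exact p of 0.143, or of 0.0286, the smallest that 4 against 3 allow, without WT replicate 3 (adjusted 0.171). With 4 libraries in each group the smallest p is also 0.0286. Counts of the most abundant antibody genes reached 1.81 per exonic base for Igkc and 1.56 for Ighm in the deposited table, and the part of such a bound in the shares was not tested.

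**Figure D5:**
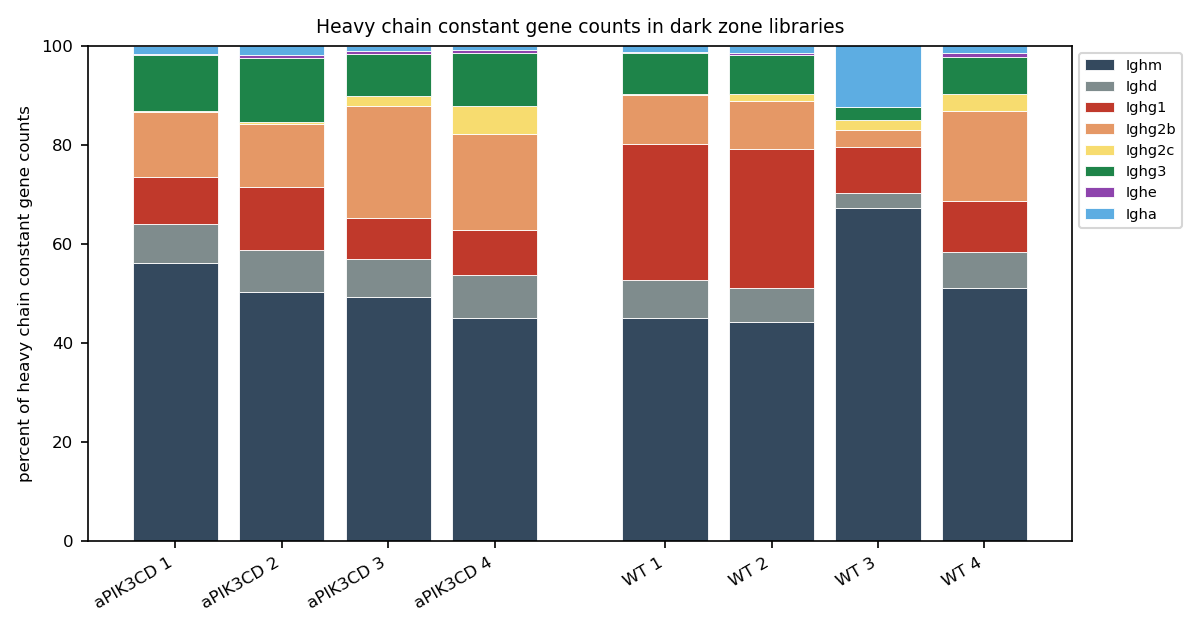
Share of heavy chain constant gene counts (percent) taken by each gene in the 4 aPIK3CD and 4 WT dark zone libraries. Ighg1 (red) takes 8.14% to 12.8% in aPIK3CD libraries and 27.5% and 27.9% in WT replicates 1 and 2, but 10.4% in WT replicate 4, and WT replicate 3 has the largest Igha share.

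Whether the dark zone response differed from that of the light zone was tested as the difference of the aPIK3CD effects, over all 32 libraries. Of 11736 genes tested with edgeR, 0 were called (0.0%), 383 had an unadjusted p below 0.05 (3.26%), and DESeq2 called 2. The smallest p belonged to Wdr4, with a difference of 2.12 (SE 0.39, adjusted p 0.0733). On the scale of the 32 libraries it had 55.3, 45.3, 59.1 and 53.8 CPM in aPIK3CD and 15, 20, 0 and 26.8 CPM in WT dark zone libraries. In the light zone it had 59.4, 51.9, 56.4 and 51.0 CPM in aPIK3CD and 109, 64.4, 94.4 and 94.2 CPM in WT libraries. The groups did not overlap in either zone, in opposite directions, and the aPIK3CD level was alike in both zones. Next came Gm15228, Iglv2, Upb1, Wls and Ighv8-8, with adjusted p values of 0.314 to 0.571. Ighv8-8 had a difference of 4.30 (SE 1.08), and its light zone values overlapped, at 20, 19, 19 and 38 counts in aPIK3CD and 2, 11, 46 and 2 counts in WT libraries.

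Light zone effects are given for some of the 24 named genes, from a fit of the 8 light zone libraries alone. Pax5 had a log2 fold change of -0.50 and Foxp1 of -0.80 there, beside -0.59 and -0.56 in the dark zone. Cul2 had 0.57 and Pdzd2 -0.72, beside 0.76 and -0.88. Smaller in size than in the dark zone were Tbc1d4 at -0.96, Satb1 at -0.25, Papss1 at 0.34, Gpaa1 at 0.03 and Ahnak at -0.22. The differences between the zones did not pass for any of them. In the fits of other populations, 0 of 9860 genes were called in light zone cells, 0 of 10421 in naive B cells and 249 of 7771 (3.2%) in plasma cells. The share called in dark zone cells was 0.021%, or 0.0% without WT replicate 3, so it does not rank dark zone cells above light zone or naive cells. The depths and spreads of these fits differ.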

How the data were processed

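The authors deposited raw counts for 53465 Ensembl genes in all 32 libraries, and no normalized values were used. STAR 2.4.2a, HTSeq and Picard are named in the submitters' processing notes, without roles. The genome build and any use of strand are not given in the sources used here. Of the genes, 3433 had no name, and matching was by identifier.

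The members and gene lists were chosen with earlier results of these data known. The 8 dark zone libraries were fitted with edgeR 4.0.16 in R 4.3.3 (TMM, filterByExpr with a minimum count of 10 and a minimum total of 15, quasi-likelihood F test, Benjamini-Hochberg adjustment over all genes tested, threshold 0.05). SE was derived from the fold change and F. CPM used TMM-scaled totals. The difference between zones was a contrast in a fit of 32 libraries. Shares were compared by exact permutation (scipy 1.17.1). The code was tested on simulated data. Named were Pik3cd, all genes called, the 12 in each direction described in the text with a mean of at least 10 CPM in the higher group (no antibody, predicted or pseudogenes), a list of pathway genes, up to 4 members per list with the smallest p, and the 6 smallest p between zones. Some genes that this rule or the lists hold are not reported here. Other members past the unadjusted threshold were picked by their values. Results were recomputed with DESeq2 1.42.0, limma 3.58.1, other filters and scalings, a replicate block, thinning, a depth covariate and leaving out each library. Promoters came from RefSeq and V segments from GENCODE M21. Totals of 1154809 to 1941224 counts, and of 25797 in WT replicate 3, limit the precision of genes with few counts.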

Additional observations from a re-analysis of the deposited data

Results flagged for a closer look

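In groups of 4 libraries, a sample was picked out when its gap to the nearest other sample took up nearly the whole range of the group (Dixon's 95% critical value). Of 150 such groups examined, 13 held 1, and chance alone picks out about 1 group in 20. WT replicate 3 stood apart in 5 of them: Slx4ip at 0 CPM, Mef2b at 424 CPM, Ighm at 7555 CPM, the lambda share of light chain constant counts at 24.4% and the mitochondrially encoded share at 6.12%. WT replicate 4 stood apart in 3, with 1.38 CPM of Ighv8-8, 78.2 CPM of Ccnd2 and 366 CPM of Ighg1, and WT replicate 2 in 1, with 7.08 CPM of Il7r. aPIK3CD replicate 2 stood apart in 3, with 329 CPM of Edem1, 33.5 CPM of Ung and 422 CPM of Ezh2, and aPIK3CD replicate 4 in 1, with 67.0 CPM of Tsc1. Wdr4 stood out because all aPIK3CD libraries were above all WT libraries in the dark zone and below all of them in the light zone. The difference of its log2 fold changes between the zones was 2.12, which did not pass the test after adjustment (adjusted p 0.0733).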

How the results depend on the processing

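The count of 2 genes called in dark zone cells depended on most choices, and the cause was not tested. It was 2 with DESeq2 size factors, 1 with the DESeq2 Wald test, with a stricter filter or without antibody genes, 0 with limma voom and quality weights, 4 in a fit over all 8 groups and 80 without a filter on low counts. It was 0 with aPIK3CD replicate 1 counted as WT, and 0 without WT replicate 3 with a depth covariate or after thinning. Leaving out 1 library gave 0 to 10, with 0 without aPIK3CD replicate 1, WT replicate 2 or WT replicate 3 and 10 without aPIK3CD replicate 2. Alternatives chosen after seeing the data gave 0 without both doubted libraries and 23 with DESeq2 without WT replicate 3. With a replicate block the count was 53 in dark zone cells and 0 for the difference between zones. Same-numbered aPIK3CD and WT dark zone libraries deviated with correlations of -0.007 to 0.045, and of the numbers only 4 was its own best match. Correlations as low were also met between zones within a genotype, so they cannot decide whether same-numbered libraries share a batch. Dark and light zone libraries correlated best with their own number in 4 of 4 aPIK3CD libraries (0.049 to 0.180) and in 2 of 4 WT libraries (-0.040 to 0.087).

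The count of 0 for the difference between zones was 2 with the DESeq2 Wald test, 90 without a filter, 1 in a fit of the 16 germinal centre libraries and 0 to 2 leaving out 1 library. No value of the Ighv1-72 share on a log scale was possible with its 0 in WT replicate 3. Leaving out 1 library, the differences of shares in percentage points ranged over -4.30 to 5.52 for Ighg, -4.26 to 3.42 for Ighm and -2.50 to 9.86 for lambda, and all 3 changed sign without WT replicate 3. The Ighm share also changed sign without aPIK3CD replicate 4.

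Log2 fold changes that did not pass the test changed sign as follows, among them Ighm (-0.67 in 8 libraries) and Ung (-0.24). With DESeq2 Tsc1 was 0.0035, and without WT replicate 3 Foxo1 was 0.00557, Ezh2 -0.00711 and Ighm 0.023. With limma voom Pik3cd was -0.041, Pik3ca -0.017, Tsc1 0.0051, Ccr7 -0.14 and Ezh2 -0.017. With aPIK3CD replicate 1 as WT, Foxo1 was 0.072, Tsc2 0.051, Ccr7 -0.23 and Ung 0.064. Without both doubted libraries Foxo1 was 0.055, Ccr7 -0.12 and Ighm 0.092. With the depth covariate Foxo1 was 0.080, Ccnd2 -0.088, Ccr7 -0.37 and Ighm 0.072, and after thinning Foxo1 was 0.0060, Ccr7 -0.034, Ezh2 -0.025 and Ighm 0.025. Without a filter Tsc1 was 0.00672, and with the replicate block Ccnd2 was -0.067. Leaving out 1 library gave -0.024 to 0.25 for Bcl6, -0.34 to 0.56 for Ccnd2, -0.36 to 0.59 for Ccr7, -0.16 to 0.0060 for Cr2, -0.11 to 0.18 for Cxcr4, -0.070 to 0.15 for Ebf1, -0.066 to 0.11 for Ezh2, -0.13 to 0.069 for Foxo1, -0.91 to 0.025 for Ighm, -0.026 to 0.13 for Pik3ca, -0.0151 to 0.20 for Pik3cd, -0.058 to 0.081 for Tsc1 and -0.56 to 0.019 for Ung. A single count in WT replicate 3 is worth 38.5 CPM, so its values for genes below that level carry little.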

Other observations

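Antigen presentation, cell cycle control and survival genes gave no calls either. Of 27 tested genes of antigen presentation and T cell help, 0 passed with edgeR, 2 were higher and 2 lower in aPIK3CD cells at an unadjusted p below 0.05, against 4.86% and 2.63% of all genes tested. The higher ones were Icam1 and Icosl, the ligand of the T cell receptor ICOS, which had 61.2, 55.6, 57.8 and 74.7 CPM in aPIK3CD and 18.2, 18.9, 77.1 and 54.0 CPM in WT libraries (log2 fold change 0.98, SE 0.35, adjusted p 0.495). WT replicate 3, with 2 counts, exceeded every aPIK3CD library. The lower ones were the MHC class II genes Cd74 and H2-Ab1. Cd74 had 1112, 1637, 1494 and 1311 CPM in aPIK3CD and 1544, 1491, 7015 and 1369 CPM in WT libraries, so its log2 fold change of -0.82 was -0.08 without WT replicate 3. H2-Ab1 had 1016, 1395, 1329 and 1115 CPM in aPIK3CD and 1421, 1341, 4548 and 1227 CPM in WT libraries, and its -0.60 was -0.13 without that library. Like Ighm and Igkc, these abundant transcripts had their highest CPM in WT replicate 3. In counts, Igkc had 238 there and 905 to 961 in the other libraries, whose totals ranged more widely.

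Of 33 cyclins, CDKs and inhibitors, 4 were higher and 1 lower at an unadjusted p below 0.05, beside backgrounds of 4.86% and 2.63% over all genes tested, with a median of 0.12. Mxd1, a MYC antagonist, had 10.5, 8.82, 21.9 and 11.6 CPM in aPIK3CD and 1.52, 6.29, 0 and 4.85 CPM in WT libraries, without overlap (1.64, SE 0.59, adjusted p 0.495). The 0 of Mxd1 is that of WT replicate 3 and carries little. Cdk2, a kinase of S phase entry, had 152, 218, 214 and 207 CPM in aPIK3CD and 148, 148, 38.5 and 152 CPM in WT libraries (0.43, SE 0.18), and Mxd1 and Cdk2 were named after their values were seen. Of 23 BCL2 family and cell death genes, 0 were past the unadjusted threshold and the median was -0.11. The survival factor Mcl1 had 0.09 (SE 0.14) and the death factor Bcl2l11, a FOXO target, 0.12 (SE 0.24).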
